A study of Homo sapiens with 9 samples.

Results

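Collagens, laminins and matrix glycoproteins are the secreted proteins that build the extracellular matrix, and their genes were followed here in PANC-1, an established human line from a ductal carcinoma of the pancreas. Members were all collagen chain genes and all laminin alpha, beta and gamma chain genes in the authors' table, plus 12 named glycoprotein and proteoglycan genes. Of 41 genes matched by symbol, 35 reached 1 CPM (the read count of a gene scaled to the library size, as the authors set it) in at least 3 of 9 libraries, out of 14554 such genes among 16750 in all. They were 20 collagen genes, 9 laminin genes and AGRN, HSPG2, NID2, FBN1, FN1 and VCAN. COL11A2, COL12A1, COL4A3, COL4A5, COL8A2 and COL9A3 did so in fewer than 3 libraries, with 0 to 1.30 CPM in each library, and SPARC, FBN2, TNC, NID1, POSTN and BGN were not analysed here. RNA came from 3 groups of 3 libraries: a line overexpressing the solute carrier SLC22A10 (SLC22A10_OE), a line overexpressing SLC22A15 (SLC22A15_OE) and a line with the empty vector. All 3 lines had been transduced with a lentivirus, selected with 1 µg/ml puromycin and kept in 0.5 µg/ml. The labels call the lines stable clones, without the number of clones behind each or the promoter of the transgene. Nothing states that libraries of a group came from separate cultures, so the spread behind the p-values, that between libraries, may be purely technical.

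Collagens are trimers of alpha chains. Fibrillar types give connective tissue its tensile strength, type IV forms the network of basement membranes, and type VI forms beaded filaments in the space between them. Laminins join an alpha, a beta and a gamma chain into the cross-shaped molecule on which epithelial cells such as those of the pancreatic duct sit, while nidogens and the heparan sulfate proteoglycans perlecan and agrin tie laminin to type IV collagen. In pancreatic carcinoma much of the fibrillar collagen is known to come from stellate cells, and tumour cells also make matrix of their own.

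Each transduced gene was high in its own line. SLC22A10 lay between 80.5 and 91.4 CPM in SLC22A10_OE, against 0 to 0.0281 CPM in vector. SLC22A15 lay between 73.3 and 78.3 CPM in SLC22A15_OE, against 5.46 to 6.52 CPM in vector. Of the epithelial markers, KRT8, KRT18, KRT19 and SOX9 were well expressed, KRT7 reached at most 0.563 CPM in any library, and EPCAM and CDH1 were not analysed here. In 1 library of each group (SLC22A10_OE 3, SLC22A15_OE 1 and vector 1) mitochondrial ribosomal RNA took 0.00958% to 0.0151% of reads, against 0.0454% to 0.0843% in the other 6. These 3 libraries stood apart within their groups. The labels mark the libraries of every group A1, A2 and B1, and which of them the library that stands apart is cannot be told from the numbered columns. Where a member's call against vector changes without these 3 libraries, or in a fit with a term for them, at least 1 of those values stands beside it.

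The promoters of 4 members are shown first because they belong to the genes on which the comparisons turn. LAMB1 and LAMB3 were higher in both overexpressing lines and COL6A3 was lower in both, while COL4A2 shares its promoter region with COL4A1, the gene of its partner chain. The windows run from 250 bases before to 50 bases after the start in RefSeq on GRCh38.p14, and are written in the gene's own direction. Capitals mark matches, on either strand, of TATAAA (the TATA box), of CCAAT (a box bound by NF-Y), of GGGCGG (the GC box, read on the other strand as its reverse complement), of TGANTCA (the AP-1 element) and of CCGGAA (the core of ETS sites). COL4A2 is at chr13:110307034-110307333 on the plus strand, LAMB1 at chr7:108003112-108003411 on the minus strand, LAMB3 at chr1:209652376-209652675 on the minus strand and COL6A3 at chr2:237414115-237414414 on the minus strand.
COL4A2: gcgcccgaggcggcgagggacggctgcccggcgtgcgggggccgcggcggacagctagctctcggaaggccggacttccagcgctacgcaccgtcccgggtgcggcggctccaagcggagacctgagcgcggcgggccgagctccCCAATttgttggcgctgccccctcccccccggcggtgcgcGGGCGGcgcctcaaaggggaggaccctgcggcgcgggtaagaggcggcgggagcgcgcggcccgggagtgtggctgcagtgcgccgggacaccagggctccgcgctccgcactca
LAMB1: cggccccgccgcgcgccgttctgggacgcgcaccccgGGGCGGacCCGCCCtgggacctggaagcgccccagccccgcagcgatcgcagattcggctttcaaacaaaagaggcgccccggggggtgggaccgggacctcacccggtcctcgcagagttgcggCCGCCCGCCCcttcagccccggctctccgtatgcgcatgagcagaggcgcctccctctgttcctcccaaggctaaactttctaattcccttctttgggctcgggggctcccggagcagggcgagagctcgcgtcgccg
LAMB3: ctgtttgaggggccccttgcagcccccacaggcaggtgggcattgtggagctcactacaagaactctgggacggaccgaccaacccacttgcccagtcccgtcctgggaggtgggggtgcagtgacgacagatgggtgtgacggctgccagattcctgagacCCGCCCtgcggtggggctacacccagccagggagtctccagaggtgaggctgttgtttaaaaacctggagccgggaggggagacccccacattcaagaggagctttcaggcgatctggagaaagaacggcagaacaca
COL6A3: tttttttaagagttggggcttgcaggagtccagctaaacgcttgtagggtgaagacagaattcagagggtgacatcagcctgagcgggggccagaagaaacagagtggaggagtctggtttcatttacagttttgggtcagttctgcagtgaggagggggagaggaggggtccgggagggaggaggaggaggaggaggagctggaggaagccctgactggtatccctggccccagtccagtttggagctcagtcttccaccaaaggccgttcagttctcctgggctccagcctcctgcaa
The COL4A2 window held 1 CCAAT box and 1 GC box, and COL4A1 starts on the other strand with 126 bases between the 2 first bases, so both genes have these boxes in their windows. LAMB1 had 4 GC boxes, a pair of which overlap, LAMB3 had 1, and COL6A3 had no match to any of the 5 motifs in its window. RefSeq windows were matched for 26 of the 35 members. Those without a window included COL1A1, COL1A2, COL3A1, COL5A2, COL6A1 and AGRN. Some windows, such as those of COL10A1, COL6A6 and LAMA3, lay far from the start of the gene in GENCODE. The GC box was found in 19 of the 26 members with a window (73.1%), against 44.6% of 27305 promoters of the same length. TATAAA was found in 4 members (15.4%, against 11.95% of all promoters), CCAAT in 6 (23.1%, against 35.7%), TGANTCA in 1 (3.85%, against 7.76%) and CCGGAA in 2 (7.69%, against 17.6%). These motifs were chosen after the data were seen, and a match describes letters, not binding.

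The line with SLC22A10 had more RNA of this group of genes. The 35 members together made up 4515, 4658 and 4795 CPM in SLC22A10_OE and 3468.9, 3282 and 3337 CPM in vector, so that every SLC22A10_OE library lay above every vector library. SLC22A15_OE had 3329, 3191 and 3179.7 CPM, and its libraries overlapped those of vector. In SLC22A10_OE against vector, 20 members were higher (34.7% of all genes tested were) and 12 were lower (32.5% of all genes), with 3 not called. Their median log2 fold change was 0.24, beside 0.00 over all genes. Of the members, 11 were higher by at least 1 on the log2 scale, where 6.26% of all genes were, and 0 were lower by that much, where 2.42% of all genes were. COL1A1, among the 20 and the 11, passed the level filter only through SLC22A10_OE. COL1A2 and VCAN, among the 12, would not have passed it without the vector libraries. In SLC22A15_OE against vector, 8 members were higher (10.8% of all genes) and 9 lower (9.58%), with 18 not called and a median of -0.07 beside 0.01 over all genes. There, LAMB3 was the 1 member higher by at least 1 (0.385% of all genes) and COL1A2 the 1 lower by at least 1 (0.57%). In bulk RNA, fewer cells expressing a gene and less RNA per cell cannot be told apart. Centring each library on its median moved all changes of SLC22A10_OE against vector by -0.12 on the log2 scale and left 17 members higher and 13 lower. The shares of all genes called after centring are not given here.

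**Figure D1:**
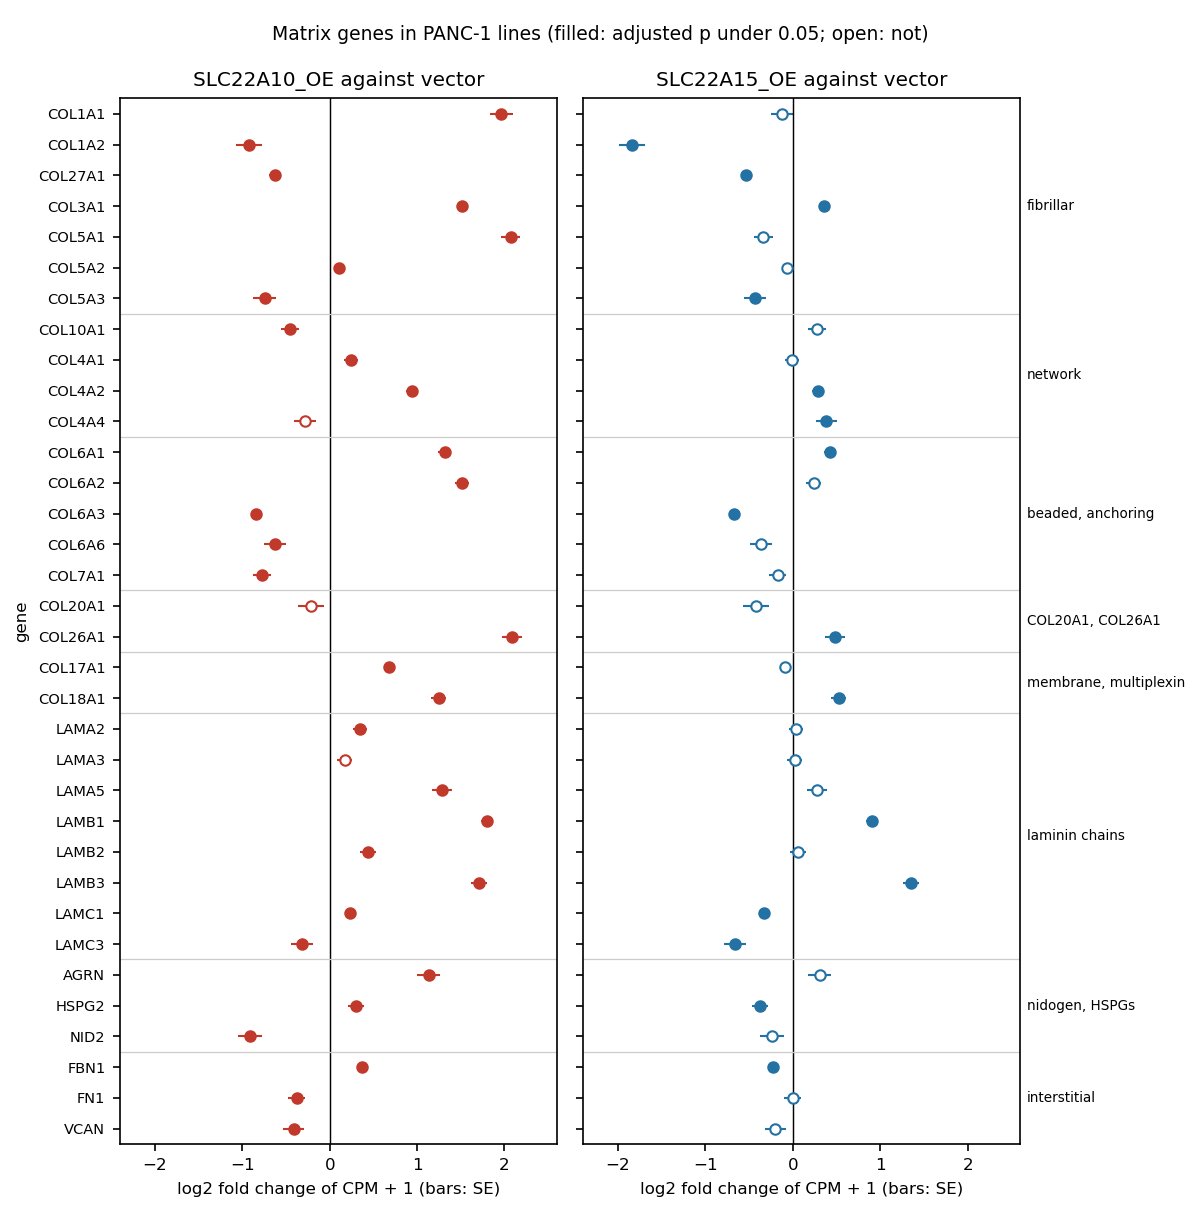
Log2 fold change (CPM + 1) with its SE for 34 members, ordered by role; the left panel is SLC22A10_OE against vector and the right panel SLC22A15_OE against vector, with filled points past an adjusted p of 0.05. In the left panel 11 members lie at or above 1, while in the right panel LAMB3 lies above 1 and COL1A2 at -1.84.

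Both comparisons with vector use the same 3 vector libraries, so their values are only set side by side. COL18A1, COL26A1, COL3A1, COL4A2, COL6A1, LAMB1 and LAMB3 were higher in both lines, and COL1A2, COL27A1, COL5A3, COL6A3 and LAMC3 were among those lower in both. FBN1, HSPG2 and LAMC1 were higher in SLC22A10_OE and lower in SLC22A15_OE. Between the lines themselves, 6 members were higher in SLC22A15_OE than in SLC22A10_OE (30.8% of all genes were) and 22 were lower (32.1% of all genes), with a median of -0.35 beside 0.00 over all genes. The 22 included each of the 10 members that were called higher in SLC22A10_OE without a call in SLC22A15_OE, namely AGRN, COL17A1, COL1A1, COL4A1, COL5A1, COL5A2, COL6A2, LAMA2, LAMA5 and LAMB2. These 10 were picked by calls in the same libraries and the same fit, so their place among the 22 is no separate result. COL1A1 passed the level filter only through SLC22A10_OE. The share of all genes with this pattern is not given here.

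Among the fibrillar collagen genes, 4 of 7 rose in SLC22A10_OE (34.7% of all genes did) and 3 fell (32.5% of all genes). COL3A1, the chain of type III collagen found with type I in soft tissue, had 505, 544 and 524 CPM in SLC22A10_OE, 235, 234 and 233 CPM in SLC22A15_OE and 182, 182 and 185 CPM in vector. The 3 groups did not overlap, and libraries within a line were close to each other. The log2 fold change was 1.51 ± 0.04 (SE) in SLC22A10_OE (adjusted p = 1.19e-11) and 0.35 ± 0.04 in SLC22A15_OE (adjusted p = 3.84e-05). COL5A2, a chain of type V collagen that sits inside type I fibrils and limits their width, was far higher and moved little. It had 1369.8, 1402 and 1332 CPM in SLC22A10_OE, 1188, 1228 and 1222 CPM in SLC22A15_OE and 1224, 1298 and 1297 CPM in vector. The rise in SLC22A10_OE was 0.10 ± 0.04 (adjusted p = 0.0395) and ended under 9 of 19 alternatives, with centring giving -0.02 (adjusted p = 0.749). In SLC22A15_OE COL5A2 was not called (-0.07, adjusted p = 0.275), but was lower in the fit with the term (adjusted p = 0.0216). COL5A2 (chromosome 2, bases 189031896 to 189225312, minus strand) lies 19.1 kb from COL3A1 (bases 188974320 to 189012746, plus strand), tail to tail, in GENCODE on GRCh38.

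COL5A1, the major partner of COL5A2 in type V collagen, had 13.1, 12.6 and 13.2 CPM in SLC22A10_OE, 1.49, 1.87 and 1.54 CPM in SLC22A15_OE and 2.40, 1.88 and 2.73 CPM in vector. SLC22A10_OE lay apart from both other lines, at a log2 fold change of 2.07 ± 0.11 against vector (adjusted p = 5.57e-09), or 5.54 times the mean CPM. SLC22A15_OE lay below vector in every library by a narrow margin, at -0.34 ± 0.11 (adjusted p = 0.0507). That difference passed 0.05 under 8 of 19 alternatives, among them edgeR (0.0388), DESeq2 (0.0241) and the term for the 3 libraries (0.0183), and the authors' deposited table gives it an FDR of 0.0428. COL1A1, the chain present in 2 copies in type I collagen, had 4.24, 5.35 and 5.43 CPM in SLC22A10_OE, 0.603, 0.338 and 0.299 CPM in SLC22A15_OE and 0.677, 0.534 and 0.398 CPM in vector. Only SLC22A10_OE rose, by 1.96 ± 0.13 (adjusted p = 3.79e-08), and SLC22A15_OE was lower than SLC22A10_OE by a log2 fold change of -2.09 ± 0.13 (adjusted p = 4.37e-08). No library outside SLC22A10_OE reached 1 CPM of COL1A1. It was therefore a member only because it was high in that line, and its place among the risen fibrillar genes followed from the filter. The authors' deposited table gives COL1A1 a log2 fold change of 3.22 in SLC22A10_OE, where no 1 CPM was added.

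COL1A2, the other chain of type I collagen, went the other way. It had 0.982, 0.744 and 1.55 CPM in SLC22A10_OE, 0, 0.104 and 0.184 CPM in SLC22A15_OE, and 3.01, 2.39 and 3.42 CPM in vector. In SLC22A15_OE these were 0, 4 and 8 reads, against 98, 85 and 129 reads in vector. It fell in SLC22A10_OE (log2 fold change -0.92 ± 0.15, adjusted p = 0.000144) and in SLC22A15_OE (-1.84 ± 0.15, adjusted p = 2.21e-06). COL27A1, a fibrillar chain of cartilage, fell to 52.4 ± 1.38 CPM in SLC22A10_OE and 56.1 ± 3.59 CPM in SLC22A15_OE, against 81.6 ± 6.65 CPM in vector (SD, n = 3 each). COL5A3, a minor type V chain, fell to 1.10 ± 0.307 CPM in SLC22A10_OE and 1.59 ± 0.180 CPM in SLC22A15_OE, against 2.499 ± 0.261 CPM in vector. The COL5A3 call in SLC22A15_OE (adjusted p = 0.0287) ended under 7 of 19 alternatives, among them leaving out any 1 of the 3 vector libraries and leaving out the 3 libraries of low mitochondrial ribosomal RNA (0.0777).

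**Figure D2:**
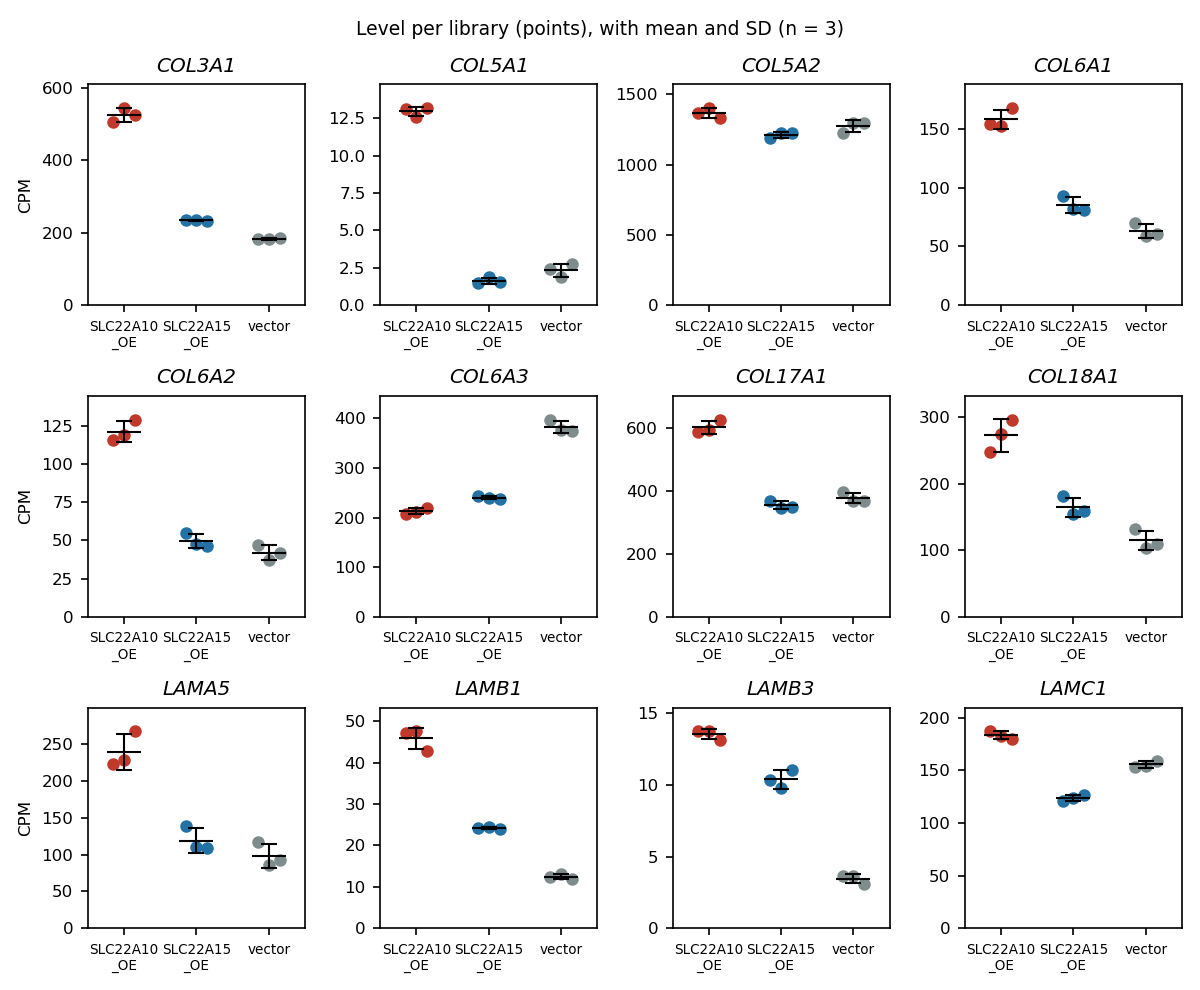
CPM of 12 members in each library (points, in library order within a line), with the mean and SD of the 3 libraries, for SLC22A10_OE, SLC22A15_OE and vector; axes start at 0. COL3A1 and LAMB1 step down from SLC22A10_OE to SLC22A15_OE to vector, COL6A3 is highest in vector, and LAMC1 is highest in SLC22A10_OE and lowest in SLC22A15_OE.

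Of the 4 network collagen genes, 2 were called higher in SLC22A10_OE and 1 lower, with 34.7% and 32.5% of all genes as background. COL4A2, a chain of the most widespread type IV collagen, had 53.0, 50.6 and 54.5 CPM in SLC22A10_OE, 36.4, 32.2 and 31.0 CPM in SLC22A15_OE and 27.6, 26.9 and 26.1 CPM in vector. Its 3 groups did not overlap, at log2 fold changes of 0.95 ± 0.07 (adjusted p = 7.83e-08) and 0.29 ± 0.07 (adjusted p = 0.00795) against vector, the call in SLC22A15_OE being lost with the close libraries averaged (0.0703). COL4A1, which is transcribed from the same promoter region in the other direction and whose chains pair with those of COL4A2, had 23.5, 25.04 and 28.2 CPM in SLC22A10_OE, 21.2, 22.4 and 20.3 CPM in SLC22A15_OE and 22.7, 19.6 and 22.1 CPM in vector. The SLC22A10_OE libraries lay just above the others, at 0.24 ± 0.08 (adjusted p = 0.0201), a call lost with centring (adjusted p = 0.192), with the close libraries averaged (0.0569), without SLC22A10_OE 3 (0.0966) or without vector 2 (0.0883). SLC22A15_OE and vector overlapped for COL4A1. COL4A4, a chain known from kidney and eye basement membranes, had 1.71 ± 0.160 CPM in SLC22A10_OE, 3.30 ± 0.0207 CPM in SLC22A15_OE and 2.33 ± 0.570 CPM in vector. Its call in SLC22A15_OE (adjusted p = 0.0436) was lost under 14 of 19 alternatives, among them the removal of those 3 libraries (0.0921). In SLC22A10_OE COL4A4 was not called (adjusted p = 0.057, and 0.0392 in the fit with the term). COL10A1, a short network collagen known from growth plate cartilage, fell to 5.20 ± 0.430 CPM in SLC22A10_OE against 7.51 ± 1.18 CPM in vector, and SLC22A15_OE had 9.27 ± 0.102 CPM (SD, n = 3 each; adjusted p = 0.0815 by limma, and 0.0211 in the fit with the term). COL10A1 lies within NT5DC1, a gene on the opposite strand.

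The 3 main chains of type VI collagen, which assemble in equal numbers, moved in different directions. COL6A1 had 154, 153 and 167 CPM in SLC22A10_OE, 92.7, 81.4 and 80.8 CPM in SLC22A15_OE and 69.6, 58.9 and 60.6 CPM in vector. It was higher in both lines without overlap, by 1.31 ± 0.07 in SLC22A10_OE (adjusted p = 6.52e-09) and by 0.43 ± 0.07 in SLC22A15_OE (adjusted p = 0.000885). COL6A2, its neighbour 93.0 kb away on chromosome 21, had 116, 119 and 129 CPM in SLC22A10_OE, 54.6, 47.5 and 46.5 CPM in SLC22A15_OE and 46.8, 37.3 and 41.7 CPM in vector. The SLC22A10_OE libraries stood above all others (1.51 ± 0.08, adjusted p = 6.52e-09), while SLC22A15_OE and vector overlapped in 1 library each (0.24 ± 0.08, adjusted p = 0.0633). Without the 3 libraries of low mitochondrial ribosomal RNA the COL6A2 difference between SLC22A15_OE and vector had an adjusted p of 0.00087.

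COL6A3, the longest chain, had 208, 211 and 219.8 CPM in SLC22A10_OE, 243, 239 and 238 CPM in SLC22A15_OE and 398, 377 and 375 CPM in vector. Every library of both overexpressing lines lay below every vector library. It fell by 0.84 ± 0.04 on the log2 scale in SLC22A10_OE (adjusted p = 2.72e-09) and by 0.67 ± 0.04 in SLC22A15_OE (adjusted p = 1.59e-07). COL6A6, a chain that can take the place of COL6A3, fell to 3.24 ± 0.481 CPM in SLC22A10_OE against 5.52 ± 0.139 CPM in vector (adjusted p = 0.000585), and had 4.11 ± 0.803 CPM in SLC22A15_OE (adjusted p = 0.0556, and 0.00962 in the fit with the term). COL7A1, the collagen of the anchoring fibrils under epithelia, fell to 7.69 ± 0.976 CPM in SLC22A10_OE, against 13.8 ± 1.01 CPM in vector (adjusted p = 1.54e-05). SLC22A15_OE had 12.1 ± 0.893 CPM of COL7A1 and was not called.

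The other collagens were mostly higher in SLC22A10_OE. COL17A1, a membrane-spanning collagen of hemidesmosomes, had 587, 594 and 626 CPM in SLC22A10_OE, 368, 347 and 347 CPM in SLC22A15_OE and 397, 369 and 367 CPM in vector. It rose in SLC22A10_OE by 0.67 ± 0.05 (adjusted p = 5.74e-08). SLC22A15_OE and vector overlapped, at -0.09 ± 0.05 (adjusted p = 0.2, and 0.00413 in the fit with the term). COL18A1, the basement membrane collagen whose end is cut off as endostatin, had 248, 275 and 297 CPM in SLC22A10_OE, 181, 155 and 158 CPM in SLC22A15_OE and 132, 104 and 109 CPM in vector. The groups did not overlap, with log2 fold changes of 1.25 ± 0.09 (adjusted p = 8.63e-08) and 0.52 ± 0.09 (adjusted p = 0.000994). COL26A1, a collagen described from testis and ovary, had 11.2, 11.2 and 12.9 CPM in SLC22A10_OE, 3.37, 2.96 and 3.20 CPM in SLC22A15_OE and 2.46, 1.94 and 1.64 CPM in vector. It was 5.85 times the vector mean in SLC22A10_OE (log2 fold change 2.09 ± 0.11, adjusted p = 5.78e-09) and 1.58 times in SLC22A15_OE (0.48 ± 0.11, adjusted p = 0.009, and 0.0973 with the close libraries averaged). COL20A1 had 2.23 ± 0.349 CPM in SLC22A10_OE, 1.79 ± 0.294 CPM in SLC22A15_OE and 2.77 ± 0.741 CPM in vector, with overlap and no call. For COL20A1 in SLC22A15_OE the adjusted p was 0.0646, against 0.00645 in the fit with the term for the 3 libraries and 0.0416 by DESeq2.

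Laminin chain genes rose in SLC22A10_OE for 6 of 9 (34.7% of all genes did) and fell for 2 (32.5% of all genes). LAMB1, the classical beta chain, had 47.1, 47.6 and 42.9 CPM in SLC22A10_OE, 24.1, 24.5 and 24.1 CPM in SLC22A15_OE and 12.4, 13.1 and 11.9 CPM in vector. The 3 lines were fully separate, at log2 fold changes of 1.80 ± 0.07 (adjusted p = 2.21e-10) and 0.91 ± 0.07 (adjusted p = 8.18e-07). LAMB1, COL1A2 and COL26A1 lie on chromosome 7, where the median log2 fold change of 711 tested genes was 0.13 in SLC22A10_OE and 0.16 in SLC22A15_OE. Within 5 Mb of LAMB1 the median of 40 other genes was 0.25 in SLC22A10_OE and 0.20 in SLC22A15_OE, and the part of this shift in the LAMB1 values was not tested.

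LAMB3, the beta chain of the epithelial laminin under hemidesmosomes, had 13.7, 13.7 and 13.1 CPM in SLC22A10_OE, 10.4, 9.75 and 11.01 CPM in SLC22A15_OE and 3.63, 3.63 and 3.10 CPM in vector. Every library of both lines lay above every vector library, at 1.71 ± 0.09 (adjusted p = 3.59e-09) and 1.35 ± 0.09 (adjusted p = 2.31e-07). LAMA3, the alpha chain of the same laminin, had 7.92 ± 0.617 CPM in SLC22A10_OE, 7.03 ± 0.293 CPM in SLC22A15_OE and 6.92 ± 0.411 CPM in vector, with no call in either line.

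LAMA5, the alpha chain most widespread in adult epithelia, had 223, 228 and 268 CPM in SLC22A10_OE, 139, 109.8 and 109 CPM in SLC22A15_OE and 117, 85.8 and 92.9 CPM in vector. SLC22A10_OE stood well above (1.28 ± 0.11, adjusted p = 5.67e-07), and SLC22A15_OE overlapped vector (0.27 ± 0.11, adjusted p = 0.115). Without the 3 libraries of low mitochondrial ribosomal RNA, the adjusted p for LAMA5 in SLC22A15_OE was 7.03e-06. LAMC1, the gamma chain of most laminins, had 187, 183 and 180.1 CPM in SLC22A10_OE, 121, 123 and 127 CPM in SLC22A15_OE and 153, 155 and 159 CPM in vector. The lines moved apart in opposite directions without overlap, at 0.24 ± 0.04 (adjusted p = 0.000311) and -0.33 ± 0.04 (adjusted p = 0.000104), and differed from each other by -0.56 ± 0.04 for SLC22A15_OE against SLC22A10_OE (adjusted p = 2.2e-07).

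LAMA2, the alpha chain of muscle laminin, had 26.8 ± 1.95 CPM in SLC22A10_OE, 21.3 ± 0.912 CPM in SLC22A15_OE and 20.8 ± 1.89 CPM in vector, and was called in SLC22A10_OE (adjusted p = 0.00179). LAMB2, a beta chain of neuromuscular and glomerular basement membranes, had 96.7 ± 7.23 CPM in SLC22A10_OE, 74.0 ± 3.77 CPM in SLC22A15_OE and 71.6 ± 11.96 CPM in vector (SLC22A10_OE against vector, adjusted p = 0.00122). In SLC22A15_OE LAMB2 was called higher without the 3 libraries (0.16, adjusted p = 0.0198) and not with them (0.06, adjusted p = 0.732). LAMC3 fell to 6.46 ± 0.461 CPM in SLC22A10_OE and 4.92 ± 0.753 CPM in SLC22A15_OE, against 8.38 ± 1.49 CPM in vector. Its call in SLC22A10_OE (adjusted p = 0.0385) was lost without vector 1 (0.170), without the 3 libraries (0.115) and under 4 other alternatives, while the call in SLC22A15_OE (adjusted p = 0.0022) held under all 19.

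The proteoglycans of basement membranes came next. AGRN, the gene of agrin, which binds laminin and clusters receptors at the neuromuscular junction, had 277, 301 and 356 CPM in SLC22A10_OE, 206, 162 and 159 CPM in SLC22A15_OE and 175, 122 and 130.2 CPM in vector. It rose in SLC22A10_OE without overlap (1.13 ± 0.13, adjusted p = 6.44e-06), and SLC22A15_OE overlapped vector (0.31 ± 0.13, adjusted p = 0.121; 3.71e-07 without the 3 libraries of low mitochondrial ribosomal RNA). HSPG2, the gene of perlecan, had 211, 219 and 249 CPM in SLC22A10_OE, 158, 133 and 134 CPM in SLC22A15_OE and 208, 163 and 181 CPM in vector. It was higher in SLC22A10_OE by 0.30 ± 0.09 (adjusted p = 0.01, lost with centring at 0.078 and with the close libraries averaged at 0.0600) and lower in SLC22A15_OE by -0.37 ± 0.09 (adjusted p = 0.0113). The call in SLC22A15_OE was lost without SLC22A15_OE 2 (0.0532) or SLC22A15_OE 3 (0.0513). NID2, a nidogen, fell to 1.93 ± 0.379 CPM in SLC22A10_OE against 4.49 ± 0.699 CPM in vector (adjusted p = 6.51e-05) and had 3.67 ± 0.622 CPM in SLC22A15_OE, with no call.

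Of the interstitial proteins, FBN1, the main chain of microfibrils, rose to 48.3 ± 0.623 CPM in SLC22A10_OE and fell to 31.7 ± 0.703 CPM in SLC22A15_OE, against 37.2 ± 1.75 CPM in vector (adjusted p = 7.18e-05 and 0.0135). The call in SLC22A15_OE was lost without SLC22A15_OE 3 (0.0549) or vector 2 (0.0613). FN1, the gene of fibronectin, which cells bind through integrins, fell to 3.42 ± 0.328 CPM in SLC22A10_OE (adjusted p = 0.00473), and had 4.74 ± 0.407 CPM in SLC22A15_OE and 4.74 ± 0.296 CPM in vector. VCAN, the gene of the large chondroitin sulfate proteoglycan versican, had 0.772 ± 0.183 CPM in SLC22A10_OE, 1.04 ± 0.0762 CPM in SLC22A15_OE and 1.35 ± 0.223 CPM in vector. It was called lower in SLC22A10_OE (adjusted p = 0.00851), a call lost without the 3 libraries of low mitochondrial ribosomal RNA (adjusted p = 0.111).

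Levels can be set between genes only per length of transcript, here the longest protein-coding one. On that scale COL5A2 led in all 3 lines, with 193 ± 4.93 CPM per kb in SLC22A10_OE, 171 ± 3.00 in SLC22A15_OE and 179.8 ± 5.92 in vector. COL17A1 came second in each, with 106 ± 3.67 CPM per kb in SLC22A10_OE, 62.3 ± 2.17 in SLC22A15_OE and 66.4 ± 2.90 in vector. In SLC22A10_OE COL3A1 followed at 94.6 ± 3.53 CPM per kb, and then AGRN (42.1 ± 5.46), COL18A1 (41.4 ± 3.72), COL6A1 (37.3 ± 1.93) and COL6A2 (35.0 ± 2.00). The SDs of neighbours among these last overlapped. All genes were read in the same libraries, and their order within each library was not tested. In SLC22A15_OE COL3A1 was again the third at 42.2 ± 0.166 CPM per kb, before COL18A1 (25.1 ± 2.17), AGRN (23.8 ± 3.52) and COL6A3 (22.3 ± 0.228). The wide SD of AGRN took in the means of both its neighbours there, while the SDs of COL18A1 and COL6A3 did not overlap. In vector COL6A3 stood before COL3A1, at 35.7 ± 1.15 and 33.0 ± 0.309 CPM per kb. FN1 was low in every line, between 0.384 ± 0.0369 CPM per kb in SLC22A10_OE and 0.532 ± 0.0333 in vector. COL5A2 alone made up 29.4% ± 1.41 of the members' summed CPM in SLC22A10_OE, 37.5% ± 1.59 in SLC22A15_OE and 37.9% ± 2.28 in vector.

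**Figure D3:**
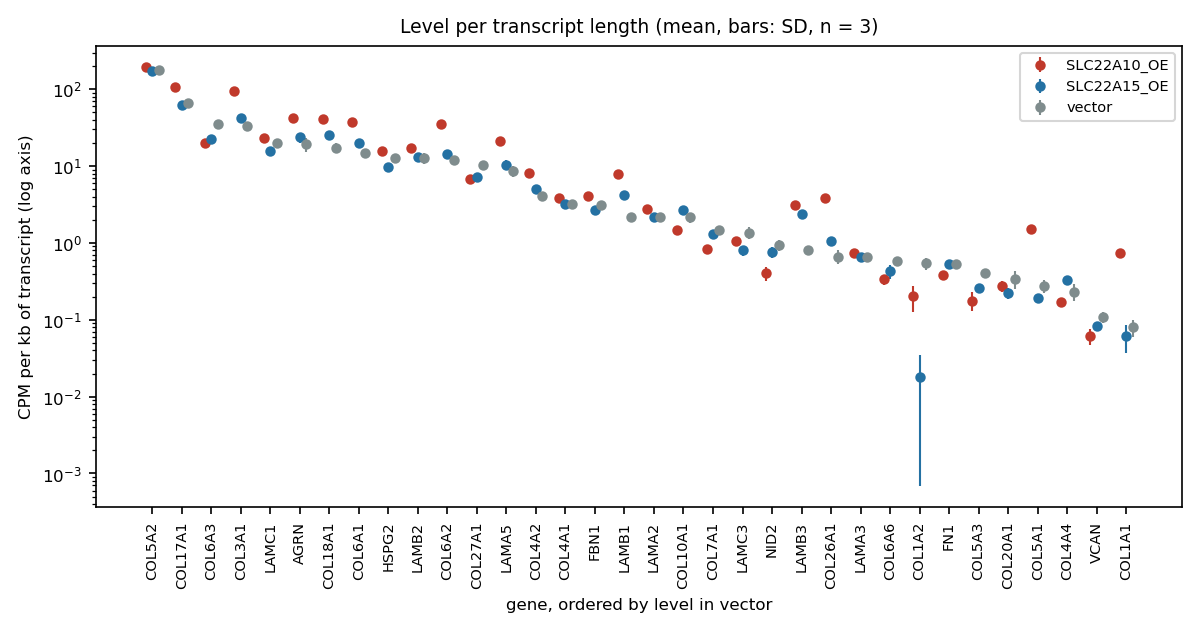
Mean CPM per kb of transcript (log axis) of 34 members, ordered by their level in vector, with the SD over 3 libraries, for SLC22A10_OE, SLC22A15_OE and vector. COL5A2 is highest in every line, and COL1A2 in SLC22A15_OE is lowest at 0.0178 CPM per kb.

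Because chains are made into trimers, the ratio of the genes of partner chains was followed in each library, as log2 of the ratio of CPM + 1. Such ratios are not per length, so only their change between lines is read. Of 27 differences over 9 pairs, 23 had groups that did not overlap. COL1A1 to COL1A2 was among them in every comparison, a pair whose direction depends in part on the level filter, as given below. Differences between these lines are common: of all genes, 34.7% were called higher and 32.5% lower in SLC22A10_OE against vector, 10.8% and 9.58% in SLC22A15_OE against vector, and 30.8% and 32.1% between the lines, and no such count was made over other pairs. With 3 libraries against 3 an exact two-sided permutation test cannot go below p = 0.1 (0.117 after adjustment over the 27), so none can pass 0.05. The ratio of COL6A3 to COL6A2 was 0.81 ± 0.04 in SLC22A10_OE, 2.26 ± 0.11 in SLC22A15_OE and 3.17 ± 0.12 in vector, a difference of -2.36 for SLC22A10_OE against vector. COL6A1 to COL6A2 moved far less, at 0.38 ± 0.03 in SLC22A10_OE, 0.77 ± 0.02 in SLC22A15_OE and 0.58 ± 0.06 in vector. LAMA3 to LAMB3 was -0.71 ± 0.07 in SLC22A10_OE, -0.50 ± 0.12 in SLC22A15_OE and 0.83 ± 0.17 in vector, and every library of both lines lay below every vector library.

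The ratio of the type I chains, COL1A1 to COL1A2, was 1.53 ± 0.29 in SLC22A10_OE, 0.36 ± 0.28 in SLC22A15_OE and -1.35 ± 0.27 in vector. It rests on low counts, and its difference for SLC22A10_OE against vector was 2.89 with 1 CPM added and 4.03 with 0.25 CPM added. COL1A1 passed the level filter only through SLC22A10_OE, and COL1A2 would not have passed it without the vector libraries. A COL1A1 to COL1A2 ratio above that of vector therefore followed in part from the filter. COL5A1 to COL5A2 was higher by 1.97 in SLC22A10_OE than in vector, whereas SLC22A15_OE overlapped vector. The pair with a shared promoter, COL4A1 to COL4A2, was -1.02 ± 0.11 in SLC22A10_OE, -0.61 ± 0.13 in SLC22A15_OE and -0.31 ± 0.11 in vector. LAMB1 to LAMC1 rose by 1.56 in SLC22A10_OE and by 1.23 in SLC22A15_OE, LAMA5 to LAMC1 rose by 1.05 in SLC22A10_OE and by 0.60 in SLC22A15_OE, and LAMB2 to LAMC1 overlapped in all 3 comparisons.

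**Figure D4:**
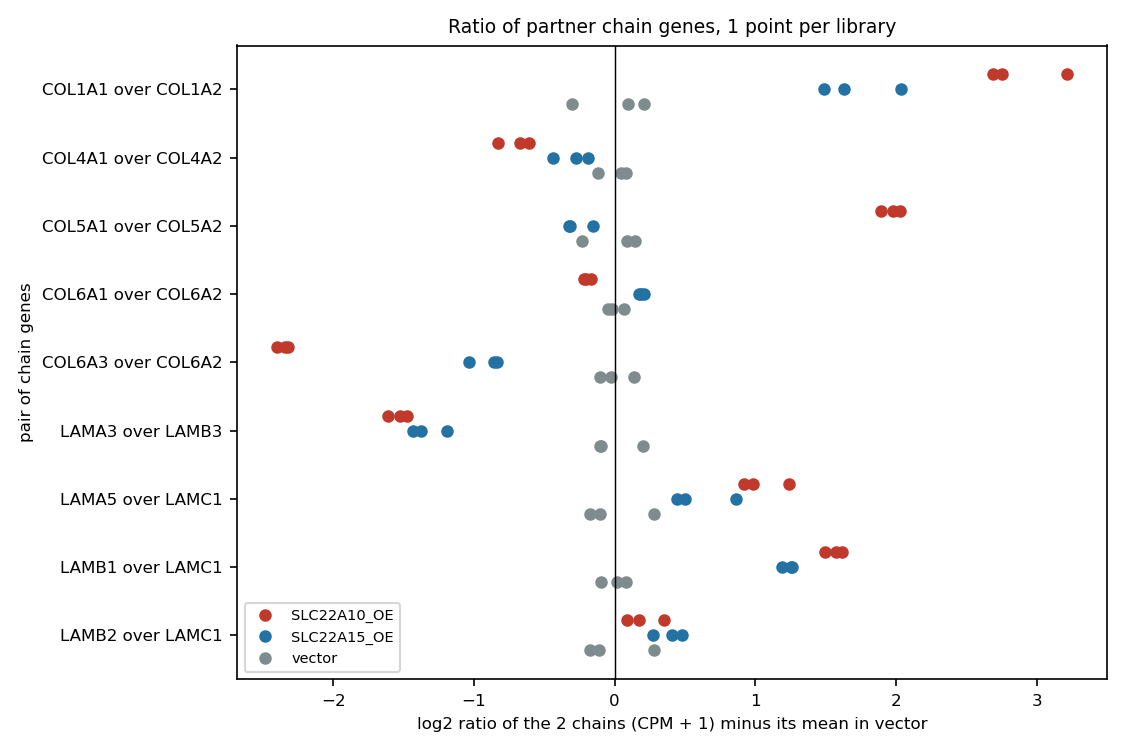
Log2 ratio of the CPM + 1 of 9 pairs of chain genes in each library (points), minus the mean of the vector libraries, for SLC22A10_OE, SLC22A15_OE and vector from top to bottom in each pair. The COL6A3 to COL6A2 points of SLC22A10_OE lie near -2.36 and those of SLC22A15_OE near -0.91, while LAMB2 to LAMC1 overlaps between the lines.

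Within each line, the library of low mitochondrial ribosomal RNA was also higher in several members. A term for these 3 libraries was called higher for 11 members and lower for 1, COL5A2, beside 2891 higher and 2699 lower of all 14554 genes. AGRN had the largest coefficient, 0.38 on the log2 scale (adjusted p = 4.14e-10), followed by LAMA5 at 0.32 (adjusted p = 3.72e-09). Across the 35 members the coefficient went with the GC content of the transcript (Pearson r 0.80, Spearman rho 0.80, a description over genes that share the same libraries). Members called higher had a median GC content of 64.5% and the others of 51.4%. Without these libraries 20 members were higher and 10 lower in SLC22A10_OE against vector, and 11 higher and 8 lower in SLC22A15_OE against vector. In the fit with the term, 12 were higher and 14 lower in SLC22A15_OE. The shares of all genes called in these alternative fits are not given here, so the counts cannot be set against a background.

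**Figure D5:**
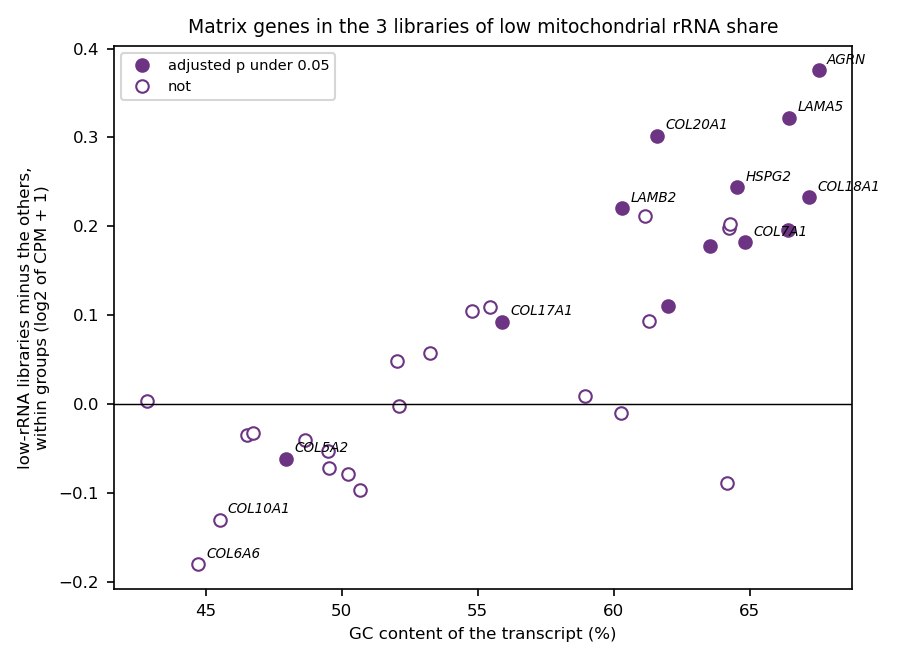
Difference between the 3 libraries of low mitochondrial ribosomal RNA share and the other libraries, within groups, on the log2 scale of CPM + 1, against the GC content (%) of the longest protein-coding transcript, for 34 members; filled points are past an adjusted p of 0.05. AGRN and LAMA5, at the GC-rich end, lie highest, and COL5A2 is below 0.

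Lists of genes that act on the matrix proteins are read against the shares of all genes called, which were 34.7% higher and 32.5% lower in SLC22A10_OE and 10.8% higher and 9.58% lower in SLC22A15_OE. Of 25 genes for folding, modifying and secreting collagen, 17 rose and 2 fell in SLC22A10_OE (median 0.37) and 6 rose and 4 fell in SLC22A15_OE (median 0.06). CREB3L1, a transcription factor known to drive collagen secretion genes, had 5.65 ± 0.304 CPM in SLC22A10_OE, 0.677 ± 0.162 in SLC22A15_OE and 0.286 ± 0.152 in vector (SLC22A10_OE against vector 2.38 ± 0.12, adjusted p = 3.89e-09). It too passed the level filter only through SLC22A10_OE. P3H3, of the prolyl 3-hydroxylase family, rose by 1.22 ± 0.07 and P4HA2, a prolyl 4-hydroxylase subunit, by 0.92 ± 0.06 in SLC22A10_OE. In SLC22A15_OE the named genes were MIA2, which helps load large cargo at the endoplasmic reticulum (0.58 ± 0.07, adjusted p = 6.68e-05), SEC23A, of the COPII coat (0.30 ± 0.06, adjusted p = 0.00214), and COLGALT2, a collagen galactosyltransferase, which fell (-0.60 ± 0.10, adjusted p = 0.000946).

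Of 12 genes for propeptide removal and cross-linking, 5 rose and 5 fell in SLC22A10_OE (median 0.05), beside 34.7% and 32.5% of all genes, and 3 rose and 2 fell in SLC22A15_OE (median -0.01). TGM2, a transglutaminase that cross-links matrix proteins, fell to 95.7 ± 6.56 CPM in SLC22A10_OE and 227 ± 13.2 CPM in SLC22A15_OE, against 291 ± 24.9 CPM in vector (adjusted p = 7.11e-10 and 0.00222). LOX, lysyl oxidase, fell to 3.66 ± 0.279 CPM in SLC22A10_OE and 6.24 ± 0.451 CPM in SLC22A15_OE, against 8.24 ± 0.075 CPM in vector. PCOLCE, an enhancer of procollagen C-proteinase, rose by 1.48 ± 0.13 in SLC22A10_OE (adjusted p = 6.17e-07). ADAMTS14, a procollagen N-proteinase, rose by 0.50 ± 0.12 in SLC22A15_OE (adjusted p = 0.00902).

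Of 16 matrix receptors other than integrins, 8 rose and 5 fell in SLC22A10_OE (median 0.24), beside 34.7% and 32.5% of all genes, and 5 rose and 4 fell in SLC22A15_OE (median -0.07). BCAM, a receptor for the laminin alpha chain encoded by LAMA5, rose to 133 ± 12.03 CPM in SLC22A10_OE and 62.5 ± 7.26 CPM in SLC22A15_OE, against 26.8 ± 3.40 CPM in vector (adjusted p = 7.25e-10 and 1.95e-06). CD44, the hyaluronan receptor, fell to 662 ± 34.7 CPM in SLC22A10_OE and 779.5 ± 27.7 CPM in SLC22A15_OE, against 1433 ± 60.9 CPM in vector (adjusted p = 1.04e-09 and 6.82e-08). MRC2, an endocytic collagen receptor, rose by 1.55 ± 0.08 in SLC22A10_OE (adjusted p = 3e-09). DDR2, a receptor kinase for fibrillar collagen, fell by 0.89 ± 0.05 on the log2 scale in SLC22A15_OE (adjusted p = 4.26e-08).

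TGF-beta is known to induce matrix genes. Of 18 genes of its pathway tested, 7 rose and 7 fell in SLC22A10_OE (median -0.03), shares near those of all genes, and 1 rose and 6 fell in SLC22A15_OE (median -0.11). LTBP2, a latent TGF-beta binding protein of microfibrils, fell to 87.3 ± 4.56 CPM in SLC22A10_OE and 84.0 ± 2.73 CPM in SLC22A15_OE, against 186 ± 11.5 CPM in vector. SMAD7, an inhibitory SMAD that is itself induced by the pathway, fell to 1.23 ± 0.184 CPM in SLC22A10_OE and 2.15 ± 0.436 CPM in SLC22A15_OE, against 7.04 ± 0.704 CPM in vector (adjusted p = 4.09e-08 and 4.86e-06). LTBP4 rose by 2.15 ± 0.12 in SLC22A10_OE (adjusted p = 7.33e-09), and TGFBR2, the type II receptor, fell by 0.82 ± 0.14 on the log2 scale in SLC22A15_OE (adjusted p = 0.00101).

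Of 20 other matrix glycoproteins and proteoglycans, 10 rose and 6 fell in SLC22A10_OE (median 0.34), beside 34.7% and 32.5% of all genes, and 1 rose and 6 fell in SLC22A15_OE (median -0.17). THBS3, a thrombospondin, rose to 81.9 ± 5.05 CPM in SLC22A10_OE and 34.1 ± 1.11 CPM in SLC22A15_OE, against 23.9 ± 0.419 CPM in vector (adjusted p = 1.12e-10 and 6.24e-05). CRIM1, a membrane protein that binds bone morphogenetic proteins, fell to 242 ± 2.93 CPM in SLC22A10_OE and 304.6 ± 6.49 CPM in SLC22A15_OE, against 383 ± 4.22 CPM in vector (adjusted p = 1.15e-08 and 4.46e-05). SMOC2, a matricellular protein, rose by 1.22 ± 0.10 in SLC22A10_OE, and NTN1, the guidance cue netrin, fell by 0.48 ± 0.10 on the log2 scale in SLC22A15_OE.

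Among 15 matrix proteases and their inhibitors, 10 rose and 2 fell in SLC22A10_OE (median 0.34), beside 34.7% and 32.5% of all genes, and 2 rose and 2 fell in SLC22A15_OE (median 0.05). CTSB, the lysosomal protease cathepsin B, rose to 379 ± 16.5 CPM in SLC22A10_OE and 221 ± 7.56 CPM in SLC22A15_OE, against 170.4 ± 8.997 CPM in vector (adjusted p = 1.01e-09 and 0.000149). MMP11, a stromelysin, rose by 2.19 ± 0.14 in SLC22A10_OE and 0.54 ± 0.14 in SLC22A15_OE (adjusted p = 2.57e-08 and 0.0147). ADAMTS10, which binds microfibrils, rose by 1.87 ± 0.12 in SLC22A10_OE (adjusted p = 3.13e-08), and ADAM17, the TNF-converting sheddase, fell by 0.21 ± 0.05 on the log2 scale in SLC22A15_OE (adjusted p = 0.0157).

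Markers of other cells that make matrix were looked at beside these values. Of 10 fibroblast and stellate cell markers, 2 passed the filter, RGS5 and ACTA2, and their list summed to 603 to 655 CPM in SLC22A10_OE and 421 to 459 CPM in SLC22A15_OE, against 265 to 311 CPM in vector. RGS5 carried that sum, with 601 to 653 CPM in SLC22A10_OE, 419.7 to 457 CPM in SLC22A15_OE and 263 to 309 CPM in vector. The low markers of the list differed among themselves. ACTA2 had 1.37 to 1.62 CPM in SLC22A10_OE, 0.780 to 0.944 CPM in SLC22A15_OE and 1.21 to 1.64 CPM in vector. THY1 had 0.072 to 0.114 CPM in SLC22A10_OE, 0.392 to 0.603 CPM in SLC22A15_OE and 0.461 to 0.742 CPM in vector. DES had 0.216 to 0.413 CPM in SLC22A10_OE, 0 to 0.364 CPM in SLC22A15_OE and 0.0308 to 0.309 CPM in vector, with overlap between SLC22A10_OE and vector. PDGFRA, PDGFRB, DCN, LUM, FAP and PDPN were not analysed here. The leukocyte list rested on CD68 and the endothelial list on CDH5 and CLDN5, with at most 24.6 CPM (CD68). CDH5 had 6.24 to 7.65 CPM in SLC22A10_OE and 2.52 to 2.86 CPM in SLC22A15_OE, against 0.901 to 1.45 CPM in vector. CLDN5 went the other way in SLC22A10_OE, with 0.504 to 1.03 CPM against 1.86 to 2.55 CPM in vector, and SLC22A15_OE overlapped vector at 1.87 to 2.96 CPM. Acinar CTRB1 reached at most 0.699 CPM. The part of RGS5 and its list in the collagen values was not tested.

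Of the 35 members, 8 overlap a protein-coding gene on the opposite strand: COL10A1, COL4A1, COL4A2, COL18A1, LAMA5, LAMB1, HSPG2 and NID2. An annotated antisense RNA overlaps 11 members, and 15 have either kind of partner. The kit kept strand, but no source used here says whether the counting did, so reads of such pairs may not be told apart.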

How the data were processed

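Strand-specific, ribosomal RNA-depleted libraries of 3 groups of PANC-1 cells, 3 per group, were read as pairs of 150 bases, per the labels' protocols. The authors deposited CPM values per Entrez gene; edgeR and the builds hg38 and mm9 stand in the submitters' processing notes, while no source used here names the aligner, the counter, its use of strand or the annotation. The authors also deposited a table for each line against vector holding, per gene, the mean log2 CPM, the log2 fold change with its size as a score, the F statistic (also a score), the FDR (a q-value) with its −log10, and the unadjusted p-value. The CPM were whole multiples of 1 read (100% within 0.1 read). Recovered totals were 28.4 to 42.9 M reads, so 1 CPM stood for 27.8 to 43.4 reads. Counts of 1 to 12 reads were even in 56.7% to 65.3% of cases, which an independent count per fragment would not give, so counting errors may be understated.

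The main test was limma 3.58.1 (R 4.3.3) with a mean trend on log2(CPM + 1), in 1 fit of all 9 libraries with 6 residual degrees of freedom. The 14554 genes with at least 1 CPM in at least 3 libraries were tested, with Benjamini-Hochberg adjustment over all of them and a threshold of 0.05. Since 1 CPM is added, fold changes of low genes are understated. Ratios of partner chains were tested by exact permutation (scipy 1.17.1). Of the members, 1 stays in the fits and counts but is not reported here by itself. Members past the threshold by at least 1 on the log2 scale against vector, or with a mean of at least 100 CPM in a group, are given per library, and of each pathway list the 3 genes with the smallest adjusted p per comparison with vector are named. Alternatives were another pseudocount, no filter, median centring, 2 groups only, edgeR 4.0.16 quasi-likelihood and DESeq2 1.42.0 on recovered reads, a term for 3 libraries low in mitochondrial ribosomal RNA, their removal, averaging of the other 2 libraries of each group, and leaving out each library. Averaging was chosen after seeing the data. Positions, transcript lengths and GC content came from GENCODE release 29 (GRCh38) and promoters from RefSeq (GRCh38.p14). The procedure was tested on simulated data of independent libraries. These held no set of libraries that stood apart, so that test does not cover the 3 libraries low in mitochondrial ribosomal RNA. The members and lists were chosen with earlier results of these data known.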

Additional observations from a re-analysis of the deposited data

Results flagged for a closer look

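FBN1, HSPG2 and LAMC1 were called in opposite directions against vector in the overexpressing lines, and differed between the lines in the limma fit. Both were conditions of the flag, so the values between the lines are no separate support. How many of all genes meet the same conditions is not given here. SLC22A15_OE was lower than SLC22A10_OE by a log2 fold change of -0.59 ± 0.06 (SE) for FBN1 (adjusted p = 1.61e-06), -0.67 ± 0.09 for HSPG2 (adjusted p = 3.29e-05) and -0.56 ± 0.04 for LAMC1 (adjusted p = 2.2e-07). For each of them all 3 SLC22A15_OE libraries lay below all 3 SLC22A10_OE libraries. With the close libraries averaged, the fall against vector in SLC22A15_OE was no longer called for FBN1 (adjusted p = 0.147) or HSPG2 (adjusted p = 0.0897). Leaving out 1 library ended that call too. For FBN1 this was SLC22A15_OE 3 (0.0549) or vector 2 (0.0613), and for HSPG2 it was SLC22A15_OE 2 (0.0532) or SLC22A15_OE 3 (0.0513). The rise of HSPG2 in SLC22A10_OE was lost with averaging (adjusted p = 0.0600) and with centring (0.078).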

How the results depend on the processing

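Calls held under all 19 alternatives for 27 of 32 members in SLC22A10_OE against vector, 10 of 17 in SLC22A15_OE against vector and 24 of 28 in SLC22A15_OE against SLC22A10_OE. In SLC22A15_OE against vector the number higher was 5 and the number lower 5 with close libraries averaged, and the number lower was 14 with the term for low mitochondrial ribosomal RNA and 14 with both. Between the lines 11 members were higher with centring and 10 with averaging and the term. These counts, too, stand without the shares of all genes called under the same alternatives. With 0.25 CPM added, the difference in log2 ratio was 4.03 (SLC22A10_OE against vector) and 2.97 (SLC22A15_OE against vector) for COL1A1 to COL1A2, 2.26 (SLC22A10_OE against vector) and -2.64 (SLC22A15_OE against SLC22A10_OE) for COL5A1 to COL5A2, and -1.71 (SLC22A10_OE against vector) and -1.50 (SLC22A15_OE against vector) for LAMA3 to LAMB3. Each of these pairs holds a gene of few CPM in at least 1 line (COL1A1 and COL1A2, COL5A1, and LAMB3), where the pseudocount weighs most. The cause of the other changes was not tested. COL5A2 in SLC22A10_OE turned to -0.017 with centring. Uncalled differences in SLC22A15_OE against vector turned sign without the 3 libraries for COL4A1 (0.035) and FN1 (0.026) and with centring for LAMA3 (-0.0062). On leaving out each library in turn, those of COL4A1 ran between -0.068 and 0.033, of FN1 between -0.060 and 0.038, of LAMA2 between -0.023 and 0.099, of LAMA3 between -0.0097 and 0.062 and of LAMB2 between -0.034 and 0.19. No paired analysis was possible because the numbered columns could not be matched to the library names A1, A2 and B1 in the labels. The term for 1 library in each group, set by its ribosomal RNA share and not by a label, acts as a block across the groups, and its counts are given above.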

Other observations

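COL4A5, a type IV chain under the filter, had 14, 10 and 9 reads in SLC22A10_OE, 2, 0 and 4 reads in SLC22A15_OE and 2, 0 and 2 reads in vector. Other genes under the filter went the other way. COL12A1 had 2, 0 and 6 reads in SLC22A10_OE, 0, 2 and 1 reads in SLC22A15_OE and 11, 12 and 11 reads in vector. In SLC22A10_OE against vector, COL4A3 had a mean of 0.547 against 0.964 CPM and COL8A2 of 0.473 against 0.797 CPM. COL11A2 and COL9A3 overlapped between SLC22A10_OE and vector.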
